A study of Rattus norvegicus with 6 samples.

Results

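Translation initiation factors are the proteins that bring the initiator tRNA, the mRNA and the small ribosomal subunit together and set the ribosome on the start codon. Their mRNAs were taken from the deposited rat count table as every protein-coding row whose gene name begins with Eif and a digit from 1 to 6, and rows named Eif2ak (kinases that phosphorylate eIF2) and Eif2s3 (the gamma subunit of eIF2) were left out by that rule. This gave 46 genes of the 22250 protein-coding rows in the table. The table holds 6 RNA-seq libraries of rat fibroblast-like synoviocytes labelled rheumatoid arthritis and WT, cells that line the joint, bought by the study from a supplier and cultured. All 6 received 10 ng/mL TNF-α, an inflammatory cytokine. In 3 of them no other agent was added (TNF-α group), and in 3 the cells received 80 μmol/L emodin together with TNF-α (TNF-α+EMO group). Emodin (EMO) is an anthraquinone found in rhubarb. The labels give day 5 for every sample, whereas the study's methods give a shorter incubation. No library without TNF-α and none with emodin alone was part of the comparison. Each value below is therefore a difference between the TNF-α+EMO group and the TNF-α group.

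Initiation in animal cells proceeds through several complexes. The GTP-binding factor eIF2 carries the initiator tRNA to the small subunit, and eIF2B recharges eIF2 with GTP after each round. The scaffold eIF3 binds the small subunit, while eIF1, eIF1A and eIF5 control how strictly the start codon is read. The eIF4F complex, made of the cap-binding protein eIF4E, the scaffold eIF4G and the helicase eIF4A, recruits the capped mRNA, and the 4E-BP proteins hold eIF4E away from eIF4G. In fibroblasts this machinery is known as a target of growth and stress signals, through phosphorylation of eIF2 and of the 4E-BPs. Such phosphorylation is not visible in mRNA counts.

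The libraries held 16813322 to 17794455 counts on genes. The initiation factors together took 0.886% to 0.912% of the counts with TNF-α alone and 1.49% to 1.58% with EMO added. Every member was deeply counted, as the lowest count of any of the 46 genes in any library was 236, so all 46 passed the filter on low counts (a minimum of 10 counts in any 3 libraries), which left 13614 genes. Cell identity was checked with marker lists. Of 12 fibroblast and synoviocyte markers found in the table, 9 could be tested and all 9 were lower with EMO, and their summed level per length lay between 8463 and 8869 TPM with TNF-α alone and between 1587 and 1739 TPM with EMO (TPM, a per-length level, is the count divided by gene length and scaled to the same total in every library). Nearly all of that sum with EMO was Vim, at a mean of 1557 TPM against 3791 TPM with TNF-α alone. The mean of Col1a1 went from 2186 TPM with TNF-α alone to 56.9 TPM with EMO. Col1a1, Pdgfra and Vim were abundant in the TNF-α group, and Col3a1 had 11700 to 12249 counts there against 19 to 32 with EMO. The synovial markers Prg4, Thy1 and Pdpn had at most 7 counts in any library. Of the 7 macrophage and leukocyte markers, 3 could be tested, with 2 higher and 1 lower, and the summed level was 85.9 to 90.3 TPM in the TNF-α group and 45.2 to 45.9 TPM in the TNF-α+EMO group, with Ptprc at 0 or 1 count in every library. The 4 endothelial, 5 epithelial and 4 chondrocyte markers each had 1 member that could be tested, and each was lower with EMO. Those summed levels were 1.11 to 1.30, 590 to 635 (nearly all Krt8) and 15.0 to 17.8 TPM in the TNF-α group, and 0.251 to 0.370, 93.2 to 101 and 0.129 to 0.260 TPM with EMO. Kdr, Epcam and Acan were at 0 in all libraries. The part of this change of markers in the results on initiation factors was not tested.

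The promoters of a few members are shown first, followed by the sequence patterns that were searched for in them. RefSeq windows on build GRCr8 (250 bases before to 50 after the annotated start) matched 42 of the 46 genes by symbol, with 45 windows in all. The stretch from 100 bases before to 30 after the start is given 5′ to 3′, with matched motifs in capitals, for the member with the largest rise among those with a window (Eif1), an eIF2 subunit with a stress-factor motif (Eif2s2), a pair of eIF3 subunits with an ETS motif at the same distance from the start (Eif3i and Eif3k) and a member that fell (Eif4g1).
Eif1 (chr10:85747037-85747166, plus strand): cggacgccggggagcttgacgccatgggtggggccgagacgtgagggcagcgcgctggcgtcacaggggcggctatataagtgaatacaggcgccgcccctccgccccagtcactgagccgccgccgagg
Eif2s2 (chr3:163855541-163855670, minus strand): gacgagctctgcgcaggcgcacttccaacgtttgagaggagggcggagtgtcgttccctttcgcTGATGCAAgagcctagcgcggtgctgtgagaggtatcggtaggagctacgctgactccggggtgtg
Eif3i (chr5:147226881-147227010, minus strand): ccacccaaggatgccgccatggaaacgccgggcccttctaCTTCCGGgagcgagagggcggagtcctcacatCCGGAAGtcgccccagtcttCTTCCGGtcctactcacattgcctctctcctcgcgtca
Eif3k (chr1:93397458-93397587, minus strand): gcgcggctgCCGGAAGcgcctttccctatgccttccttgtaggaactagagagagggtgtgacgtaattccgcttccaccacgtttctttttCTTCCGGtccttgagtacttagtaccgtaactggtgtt
Eif4g1 (chr11:93746338-93746467, minus strand): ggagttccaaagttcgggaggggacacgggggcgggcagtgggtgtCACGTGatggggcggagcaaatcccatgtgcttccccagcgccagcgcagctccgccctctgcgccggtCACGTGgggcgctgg
The motifs searched, on both strands, were CCGGAAG (bound by ETS family factors), CACGTG (the E-box bound by MYC and its relatives), TGATGNAA (the composite element of C/EBP and ATF factors, to which ATF4 binds) and TGACGTCA (the cyclic AMP response element). No match of one string overlapped a match of another in the members. The ETS string was in the windows of 17 of the 42 members (40.5%), against 9.63% of 27457 genes with a window and 18.8% of the 9200 of them whose symbol was among the genes tested here. In both Eif3i and Eif3k it began 8 bases before the annotated start. Of the 16 members with a window that rose past 2-fold, 9 held it, as did 3 of the 6 that fell. The E-box was in the windows of 9 of the 42 (21.4%, against 7.08% of all genes and 9.95% of the tested ones), the composite element in 2 (4.76%, against 4.16% and 2.17%) and the cyclic AMP element in 0 (against 2.00% and 3.18%). Eif2s2 and Eif3g were the 2 with the composite element. Eif4ebp1, Eif4b, Eif3el1 and Eif4e3 had no window and were not searched. The Eif1 window held no match. These are descriptions of letters in fixed windows, and binding was not measured.

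The first comparison asked how many initiation factor mRNAs differed between the TNF-α+EMO group and the TNF-α group. Of the 46 members, 35 rose with EMO (76.1%), 8 fell (17.4%) and 3 did not pass the test (adjusted p under 0.05, quasi-likelihood test of edgeR, adjusted over the 13614 genes). Over all genes tested, 39.4% were called higher and 41.4% lower, 80.9% in all, so the number of members that changed has to be read against a background in which most genes changed, whereas the split between directions among members was uneven. Past a 2-fold change, 17 members rose (37.0%, against 19.5% of all genes) and 2 fell (4.35%, against 27.8%). All genes tested include genes with far fewer counts than any member, and these shares were not matched for count level. The median log2 fold change of the members was 0.78, or 1.71-fold, and that of all genes was -0.01. The normalized counts of the groups did not overlap in 42 members (91.3%, against 82.9% of all genes). Normalized counts are counts scaled by edgeR's TMM factors to the mean library size, and values in the following paragraphs are given in the order of replicates 1, 2 and 3, which have no order in time. With 3 libraries against 3, an exact permutation test cannot go below p = 0.1, so p-values here rest on edgeR's estimate of the spread. The members were chosen with earlier results of these data known, so no test of the list as a whole was made. Counts are relative within a library, so a higher value can mean more of that mRNA or less of other RNA, and in these bulk samples fewer cells of a type and less RNA per cell cannot be told apart.

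**Figure D1:**
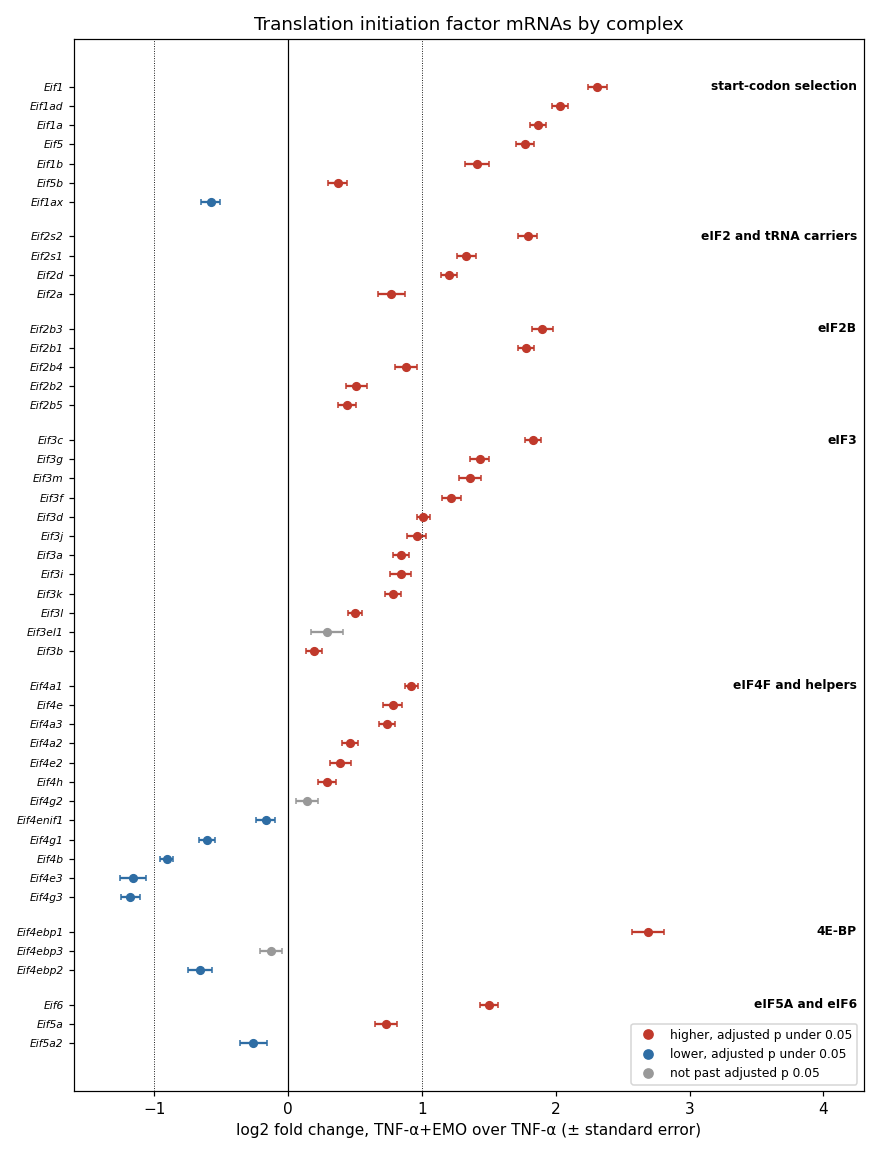
Log2 fold change (TNF-α+EMO over TNF-α, x axis, with bars of ± 1 standard error) of each of the 46 initiation factor mRNAs, grouped by complex, from the edgeR fit of 3 libraries against 3. Red points passed an adjusted p of 0.05 upwards (35), blue downwards (8) and grey did not pass (3), and dotted lines mark a 2-fold change. The eIF2, eIF2B and eIF3 points are all right of 0, and the largest fall is that of Eif4g3, at -1.18.

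The group named start-codon selection had the highest median of the complexes with 4 or more members. It was formed by gene name, so it also held Eif5b and Eif1ad. The latter is not known as a canonical initiation factor. Of 7 members, 6 rose, 5 of them past 2-fold with Eif1ad included, and 1 fell, with a median log2 fold change of 1.77. For comparison, 39.4% of all genes tested were called higher, 19.5% higher past 2-fold and 41.4% lower. Eif1 encodes the gatekeeper eIF1, which keeps the scanning ribosome open until a start codon is met. It had 5049, 5328 and 5130.0 normalized counts with TNF-α alone and 28078, 25496 and 23204 with EMO added. Each emodin library was over 4-fold above every TNF-α library, and the log2 fold change was 2.31 (standard error 0.07, adjusted p = 2.9e-10), or 4.95-fold. The gene lies at chromosome 10, 88227360 to 88229765 in the deposited coordinates (build Rnor_6.0 in the submitters' processing notes). Its close relative Eif1b, with 385, 409.6 and 445 normalized counts in the TNF-α group and 1135, 1032 and 1127 with EMO, rose less, by 1.41 on the log2 scale (standard error 0.09). Eif5 encodes the GTPase-activating protein of eIF2, which opposes eIF1 at the start codon. Its values were 3427, 3548 and 3388 without and 12784, 11739 and 10748 with EMO, which gave a log2 fold change of 1.77, with a standard error of 0.07 (adjusted p = 1.6e-09). Thus the mRNAs of both opposing factors rose, by 4.95-fold for Eif1 and 3.40-fold for Eif5. Eif5b, which joins the large ribosomal subunit to the complex, had 2088 ± 20.5 normalized counts with TNF-α alone and 2702 ± 202 with EMO (SD, n = 3 each), and the log2 fold change was 0.37 (standard error 0.07, adjusted p = 0.00036).

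The genes for eIF1A, which binds beside eIF1 on the small subunit, moved in opposite directions. Eif1a, on chromosome 18, had 1703, 1845 and 1896 normalized counts with TNF-α alone and 6896, 6601 and 6439.7 with EMO added (log2 fold change 1.87, standard error 0.06, adjusted p = 4.6e-10). The X-linked copy Eif1ax fell from 2359, 2338 and 2360.4 to 1659, 1613 and 1441 (log2 fold change -0.58, standard error 0.07, adjusted p = 1.0e-05). The groups did not overlap for either gene. Per length, Eif1a made up 56.2, 58.4 and 58.8% of the eIF1A mRNA with TNF-α alone and 88.1, 87.9 and 88.8% with EMO added, a difference of 30.5 percentage points. This pair was chosen after its values were seen. Related copies can share reads, and how reads matching both were counted is not stated in the sources used here. Eif1ad, named for an eIF1A domain but not known as a canonical initiation factor, rose by 2.03 on the log2 scale (standard error 0.06), with 1393, 1434 and 1473 normalized counts without and 5597, 5698 and 6222 with EMO.

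**Figure D2:**
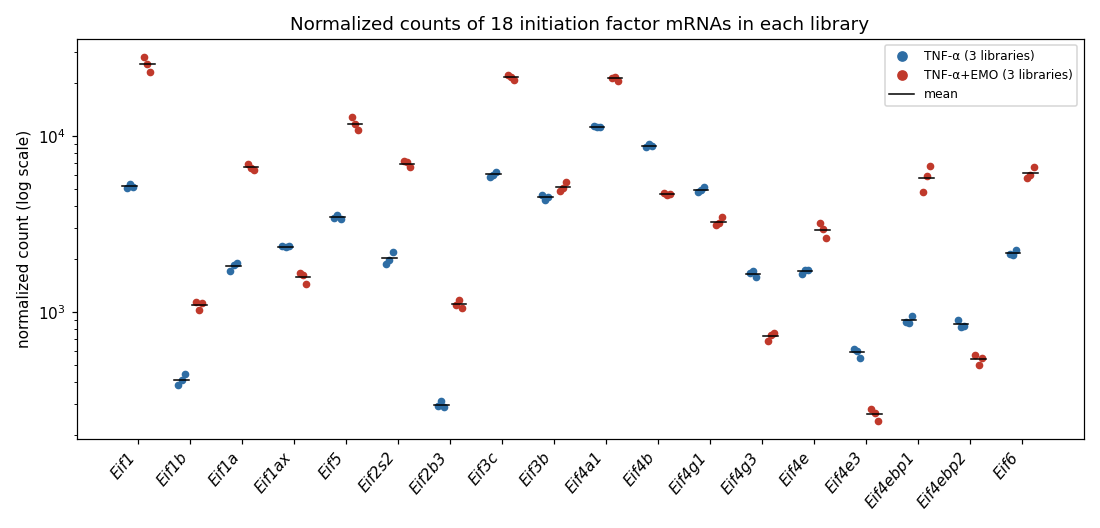
Normalized counts (y axis, log scale) of 18 initiation factor mRNAs in each library, with the 3 TNF-α libraries in blue, the 3 TNF-α+EMO libraries in red and a black line at each mean. The groups are apart for every gene shown, with Eif1, Eif2b3 and Eif4ebp1 among those with the red points far above and Eif4b, Eif4g1, Eif4g3, Eif4e3, Eif1ax and Eif4ebp2 with the red points below.

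The alpha and beta subunit genes of eIF2 and the 2 other measured factors that can bring tRNA to the ribosome rose. Eif2s1 encodes the alpha subunit, whose phosphorylation slows translation under stress. It had 2006, 1979 and 2012 normalized counts with TNF-α alone and 5343, 5187 and 4533 with EMO added (log2 fold change 1.33, standard error 0.07, adjusted p = 1.6e-08). The beta subunit gene Eif2s2 (chromosome 3, 150391460 to 150412179) rose further, from 1867, 1979 and 2198 to 7184, 7079 and 6652, or 3.46-fold (log2 standard error 0.07, adjusted p = 1.7e-09). The values of the groups lay far apart for both subunits. Eif2d, an alternative carrier that also acts in ribosome recycling, went from 1253, 1240.4 and 1188 to 2696, 2867 and 2869 (log2 fold change 1.20, standard error 0.06). Eif2a, which is a separate protein and not a subunit of eIF2, rose least of the 4, from 951, 1024 and 961 to 1956, 1595 and 1441 (log2 fold change 0.77, standard error 0.10). Eif2a overlaps Serp1 on the opposite strand, a gene with up to 23091 counts, and no strand setting is given in the sources used here, so reads of the pair cannot be told apart. The median log2 fold change of these 4 genes was 1.26, and 39.4% of all genes tested were called higher.

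All 5 subunits of eIF2B, the exchange factor that is blocked by phosphorylated eIF2, rose as well, with a median of 0.88. Among all genes tested, 39.4% were called higher and 41.4% lower. The 5 subunits were not equal. The gamma subunit gene Eif2b3, part of the catalytic section of the complex, had the highest estimate, from 292, 310.1 and 287 normalized counts to 1099.5, 1169 and 1052 (log2 fold change 1.90, standard error 0.08, adjusted p = 3.0e-09). The regulatory alpha subunit gene Eif2b1 followed, from 716, 690.4 and 719.9 to 2405, 2469 and 2408 (log2 fold change 1.78, standard error 0.06). Eif2b1 overlaps Ddx55 and Gtf2h3 on the opposite strand, with up to 967 and 482 counts, so part of its count is uncertain. The delta subunit gene Eif2b4 rose by 0.88 (standard error 0.08), the beta subunit gene Eif2b2 by 0.51 (standard error 0.08) and Eif2b5, for the catalytic epsilon subunit, by 0.44 (standard error 0.07), all on the log2 scale. Eif2b5 had 1356, 1266 and 1332 normalized counts without and 1893, 1815 and 1656 with EMO, a rise that was small but without overlap in normalized counts. Its mean TPM was 48.5 ± 1.27 without and 51.4 ± 5.57 with EMO. Neither Eif2b3 and Eif2b1 at the upper end nor Eif2b2 and Eif2b5 at the lower end differed by more than the sum of their standard errors.

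For eIF3, the largest initiation complex, 12 subunit genes were members. Of these, 11 rose, 5 of them past 2-fold, none fell and Eif3el1 did not pass. The shares over all genes tested were 39.4% higher, 19.5% higher past 2-fold and 41.4% lower. The median log2 fold change of the 12 was 0.90, with a range from 0.19 to 1.83. Eif3c, a core subunit that contacts eIF1 and eIF5, rose most. Its normalized counts were 5863, 6035 and 6268 with TNF-α alone and 22153, 21736 and 20690.2 with EMO added, 3.55-fold higher (log2 standard error 0.06, adjusted p = 2.3e-10). The other 4 that rose past 2-fold were Eif3g, Eif3m, Eif3f and Eif3d. Eif3g, an RNA-binding subunit tied to scanning, had 2454, 2472 and 2526 against 6088, 6746 and 7309.6 (log2 fold change 1.43). Eif3m had 2696, 2849 and 2748 against 7973, 7072 and 6252 (1.36). Eif3f had 3642, 3406 and 3183 against 7618, 7616 and 8601 (1.22). Eif3d, which can itself bind the cap of some mRNAs, had 4130.5, 4291 and 4261 against 8362, 8561 and 8623 (1.01). Eif3d lay at the 2-fold line. Just below it came Eif3j, a loosely bound subunit, at 0.96, then Eif3i and the large scaffold subunit gene Eif3a, both at 0.84, and the peripheral subunit genes Eif3k at 0.78 and Eif3l at 0.50, with standard errors of 0.05 to 0.08. Eif3b, a core scaffold beside Eif3a, moved least, from 4606, 4353 and 4514 to 4860.1, 5071 and 5472 (log2 fold change 0.19, standard error 0.06, adjusted p = 0.014). That call was lost without TNF-α replicate 2 (adjusted p = 0.069), with library totals as the only scaling (0.25) and with 10 counts required in all 6 libraries (0.10), in a range from 0.006 to 0.25 over 13 alternatives. Eif3el1, named as a subunit E-like gene, had 4669.9, 4903 and 4729 normalized counts in the TNF-α group and 6823, 6013 and 4647 in the TNF-α+EMO group, where replicate 3 lay just below all of the TNF-α libraries and the other 2 above them. Its log2 fold change of 0.29 (adjusted p = 0.055) became 0.42 (adjusted p = 1.7e-06) without TNF-α+EMO replicate 3, and it also passed with DESeq2 (0.023) and with the replicate number as a block (0.032), in a range from 1.7e-06 to 0.23 over the alternatives. Other rows of the table are described as eIF3 subunit E-like or as a pseudogene of Eif3i, and these copies may share reads with Eif3el1 and Eif3i. Eif3i also overlaps Tmem234 on the opposite strand, which had up to 430 counts. Subunit H is listed under a locus name and so was not a member.

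Levels of eIF3 subunits were compared per length within each library, as TPM. In the TNF-α group the highest were Eif3l at 417 ± 4.88 and Eif3el1 at 408 ± 14.3 TPM and the lowest was Eif3j at 52.9 ± 3.14 TPM (SD, n = 3). In the TNF-α+EMO group Eif3c stood at 634 ± 48.7 TPM, above Eif3g at 541 ± 28.7 and Eif3f at 534 ± 16.2 TPM, while Eif3j was again the lowest at 80.2 ± 4.08. Eif3g and Eif3f did not differ beyond their spread, and neither did Eif3l and Eif3el1 in the TNF-α group. The coefficient of variation over the 12 subunits was 41.3, 41.9 and 40.6% with TNF-α alone and 43.4, 44.4 and 46.3% with EMO added. The difference between the group means was 3.40 percentage points per length and 12.4 without division by length. TPM is scaled by another rule than the normalized counts. For Eif3b the mean TPM was 176 ± 3.34 without and 157 ± 2.88 with EMO, the opposite order to its normalized counts. The order also turned for Eif3el1 (408 and 391 TPM) and, outside eIF3, for Eif4g2 (264 and 227 TPM) and Eif4h (224 and 213 TPM), and for no other member. Directions between groups are therefore given from the edgeR fit.

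**Figure D3:**
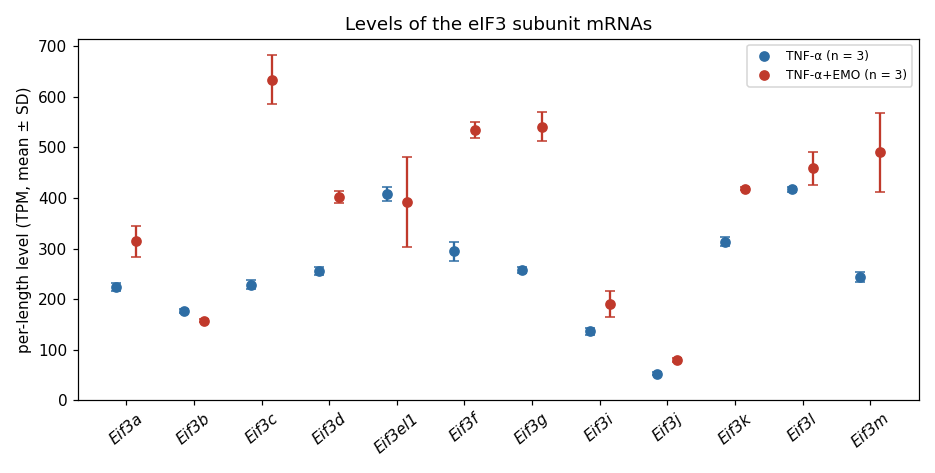
Per-length level (TPM, y axis) of the 12 eIF3 subunit mRNAs as mean ± SD of 3 TNF-α libraries (blue) and 3 TNF-α+EMO libraries (red). Eif3c goes from 229 to 634 TPM, while the points of Eif3b and Eif3el1 stay close together.

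The cap-binding complex eIF4F and its helpers held members that rose and members that fell. Of 12 members, 6 rose, none past 2-fold, 5 fell, 2 of them past 2-fold, and Eif4g2 did not pass, against 39.4% higher and 41.4% lower over all genes. The median log2 fold change was 0.21, and 0.10 with library totals as the only scaling. Among the helicase genes, Eif4a1 had 11335, 11199.7 and 11218 normalized counts with TNF-α alone and 21454, 21733 and 20521 with EMO added (log2 fold change 0.92, standard error 0.05, adjusted p = 2.5e-08). Its paralog Eif4a2 rose less, from 4803, 5138 and 5131 to 7049, 7194 and 6535 (log2 fold change 0.46, standard error 0.06). The share of Eif4a1 in the per-length level of the pair was 75.6, 74.1 and 74.1% without and 80.0, 79.8 and 80.4% with EMO, without overlap. Eif4a3, a related helicase that serves in the exon junction complex on spliced mRNA, rose by 0.74 (standard error 0.06). The cofactors that stimulate eIF4A diverged. Eif4b (chromosome 7, 143679617 to 143701452) fell from 8666, 8966 and 8739 to 4731, 4629 and 4709 normalized counts, 1.87-fold (log2 fold change -0.91, standard error 0.05, adjusted p = 3.3e-08), whereas Eif4h rose from 5442, 5153 and 5179 to 5976, 6126 and 7137 (log2 fold change 0.29, standard error 0.07, adjusted p = 0.004), although its mean TPM was lower with EMO. In normalized counts the groups did not overlap for either cofactor.

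None of the scaffold genes of the eIF4G family passed the test upwards. Eif4g1, the main scaffold that bridges eIF4E, eIF4A and eIF3, fell from 4805, 4957 and 5098 to 3130.4, 3183 and 3451 (log2 fold change -0.61, standard error 0.06, adjusted p = 3.4e-06). Its paralog Eif4g3 fell more than 2-fold, from 1659.6, 1703 and 1588 to 683, 738 and 763 (log2 fold change -1.18, standard error 0.07, adjusted p = 4.6e-08), the lowest value of all members together with that of Eif4e3, from which it differed by less than a standard error. Eif4g2, also known as DAP5, lacks the eIF4E-binding part and serves initiation that does not depend on eIF4E. It had 11154, 11902 and 11459 normalized counts without and 13798, 13111 and 11011 with EMO, where replicate 3 lay below all of the TNF-α libraries, and its log2 fold change was 0.14 (adjusted p = 0.14). Without TNF-α+EMO replicate 3 this was 0.22 (adjusted p = 0.00061), and over the 13 alternatives the adjusted p ranged from 0.00061 to 0.81. Per length, Eif4g2 held 63.3, 64.1 and 63.1% of the family with TNF-α alone and 78.1, 76.8 and 72.1% with EMO added. The share of Eif4g1 went from 28.4 ± 0.711% to 20.4 ± 2.69%, and that of Eif4g3 from 8.12 ± 0.306% to 3.92 ± 0.506% (SD, n = 3 each). A separate row described as Eif4g1-like had 39 to 125 counts per library.

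The cap-binding proteins also shifted among paralogs. Eif4e, which encodes the cap-binding protein of eIF4F, rose from 1651, 1728 and 1742 to 3185, 2950.1 and 2642 normalized counts (log2 fold change 0.78, standard error 0.07, adjusted p = 2.4e-06). Eif4e2, a homolog that binds the cap and represses translation together with Gigyf2, had 1071, 1077 and 1134 without and 1303, 1455 and 1543 with EMO (log2 fold change 0.39, standard error 0.08). Eif4e3 was the least abundant of the family and fell past 2-fold, from 618, 604 and 550.4 to 283, 268 and 240.4 (log2 fold change -1.16, standard error 0.10, adjusted p = 6.7e-07). Per length, Eif4e made up 49.2, 50.5 and 50.6% of the 3 with TNF-α alone and 66.6, 63.0 and 59.6% with EMO added, while Eif4e3 went from 18.8, 18 and 16.3% to 6.03, 5.84 and 5.53%. The share of Eif4e2 overlapped between the groups, at 32.2 ± 0.775% and 31.1 ± 3.78% (exact permutation test, two-sided p = 0.7). Eif4enif1, the transporter that carries eIF4E into the nucleus, went from 968 ± 21.8 to 863 ± 23.0 normalized counts (log2 fold change -0.17, adjusted p = 0.046). It lost that call under 8 of 13 alternatives, with an adjusted p from 0.004 to 0.15, and among the fits that left out a library it kept it only without TNF-α+EMO replicate 1 (adjusted p = 0.04).

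The 4E-BP genes, whose proteins compete with eIF4G for eIF4E, held the largest rise of all 46 members. Eif4ebp1 (chromosome 16, 68954875 to 68968248) is known as a direct target of the stress factor ATF4. It had 873, 861 and 954 normalized counts with TNF-α alone and 4791, 5888 and 6712 with EMO added (log2 fold change 2.69, standard error 0.12, adjusted p = 1.6e-08), 6.47-fold. The emodin libraries differed among themselves, with replicate 3 the highest, but each was over 5 times every TNF-α library. Eif4ebp2 moved the other way, from 904, 817 and 834 to 572, 496 and 548 (log2 fold change -0.66, standard error 0.09, adjusted p = 2.8e-05). Per length, Eif4ebp1 accounted for 67.0, 68.9 and 70.6% of these 2 with TNF-α alone and 94.6, 96.1 and 96.3% with EMO added. The row named Eif4ebp3 had 1753, 1892 and 1779.8 and 1814, 1651 and 1506 normalized counts, which overlapped (log2 fold change -0.13, adjusted p = 0.15). Without TNF-α+EMO replicate 1 it was -0.20 (adjusted p = 0.021), and it also passed with library totals (0.019) and with 10 counts in all 6 libraries (0.031), within a range from 0.019 to 0.38. That row is listed with a gene length of 8986 bases, against 831 for Eif4ebp1 and 1749 for Eif4ebp2, and spans chromosome 18, 29386809 to 29492718, so its counts need not come from a 4E-BP3 mRNA, and it was left out of the comparison of Eif4ebp1 with Eif4ebp2, a choice made after the values were seen. With it included, the share of Eif4ebp1 went from 61.0 ± 1.75% to 93.3 ± 1.47%.

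The level of 4E-BP mRNA was then set against that of its partner Eif4e within each library, per length. The ratio of Eif4ebp1 to Eif4e was 1.63, 1.54 and 1.69 with TNF-α alone and 4.64, 6.15 and 7.83 with EMO added. With Eif4ebp2 added it was 2.35 ± 0.107 and 6.48 ± 1.62, and with all 3 rows 2.65 ± 0.1 and 6.64 ± 1.62 (SD, n = 3 each). All of these ratios were higher in every TNF-α+EMO library than in any TNF-α library. In total, 17 shares and ratios were compared by exact permutation tests (two-sided), and 16 reached the smallest p the design allows, 0.1 (adjusted over the 17, 0.106), so none could pass 0.05. These are ratios of mRNA, and protein and its phosphorylation were not measured in these libraries.

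**Figure D4:**
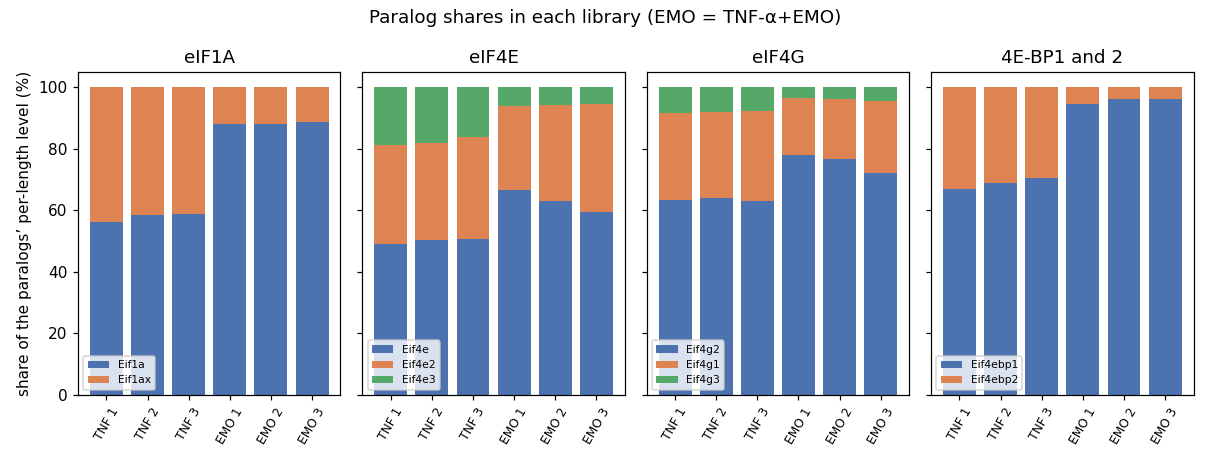
Share of each paralog (%, y axis) in the summed per-length level of its family in each of the 6 libraries, for eIF1A, eIF4E, eIF4G and the 4E-BPs without the Eif4ebp3 row. In each TNF-α+EMO library the shares of Eif1a, Eif4e, Eif4g2 and Eif4ebp1 are larger than in any TNF-α library.

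The last members act around initiation. Eif6, which keeps the large ribosomal subunit from joining too early and also serves its assembly, rose from 2142, 2114 and 2247 to 5734, 6028 and 6687 normalized counts (log2 fold change 1.5, standard error 0.07, adjusted p = 5.2e-09). Eif5a encodes the hypusine-bearing factor that helps ribosomes through difficult peptide bonds, and despite its name acts mainly in elongation. It had 12227, 11272 and 12001 without and 17705, 19225 and 21763 with EMO (log2 fold change 0.73, standard error 0.08). Its paralog Eif5a2 was scarce, with 702, 789.9 and 662 and 681, 569 and 550.1 normalized counts, which overlapped, and a log2 fold change of -0.26 (adjusted p = 0.039). That call was lost without TNF-α+EMO replicate 2 (adjusted p = 0.11) or 3 (0.055) and without TNF-α replicate 1 (0.070) or 2 (0.17), within a range from 0.0045 to 0.17 over the alternatives. Eif5a made up 98.5 ± 0.191% of the pair per length in the TNF-α group and 99.2 ± 0.162% with EMO, and Eif1 made up 89.3 ± 0.709% and 93.9 ± 0.618% of Eif1 and Eif1b (SD, n = 3 each).

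In per-length levels, the most abundant member was Eif5a in the TNF-α group (1132 ± 37.5 TPM), followed by Eif4a1 (728 ± 3.22 TPM) and Eif1 (427 ± 16.0 TPM), which did not differ from Eif3l beyond its SD. In the TNF-α+EMO group the order was Eif1 (1651 ± 223 TPM), Eif5a (1456 ± 90.4 TPM) and Eif4a1 (1073 ± 74.7 TPM), where Eif1 and Eif5a lay within the sum of their SDs. The least abundant were Eif2b3 and Eif5a2 in the TNF-α group, at 15.9 ± 0.767 and 16.9 ± 1.65 TPM, which did not differ beyond their spread, and Eif4e3 and Eif5a2 in the TNF-α+EMO group, at 9.40 ± 1.15 and 11 ± 1.70 TPM, which again lay within the sum of their SDs. Eif4g3, at 11.6 ± 0.335 TPM in the TNF-α+EMO group, did not differ from Eif5a2 beyond the sum of their SDs either.

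Other genes of the initiation pathway were taken from a list of 34 partners found in the table. Of these, 19 rose, 10 fell and 5 did not pass, with 6 rising and 3 falling past 2-fold (5 falling with library totals as the only scaling). Over all genes, 39.4% were higher and 41.4% lower, and 19.5% and 27.8% past 2-fold. The median log2 fold change was 0.32. Ppp1r15a, also called GADD34, which brings a phosphatase to eIF2, went from 750.4, 748 and 687 to 14729, 16005 and 19332 normalized counts (the largest rise, log2 fold change 4.52, standard error 0.11, adjusted p = 6.1e-11). Eif2ak3, which encodes the endoplasmic reticulum kinase PERK, rose by 2.09 (standard error 0.07), and Impact, an inhibitor of the eIF2 kinase GCN2, by 1.54 (standard error 0.07). The largest falls were of Bzw2, an eIF5 mimic that restrains start-codon choice, from 2106, 2015 and 1996 to 398, 404 and 325 (log2 fold change -2.44, standard error 0.09, adjusted p = 8.6e-10), Eif2ak4, the gene for GCN2 itself (log2 fold change -1.51, standard error 0.09), and Pdcd4, an inhibitor of eIF4A (log2 fold change -1.08, standard error 0.06). The other 2 kinases of eIF2 were added after their values were seen. Eif2ak2 fell (log2 fold change -0.43, adjusted p = 0.00036), and Eif2ak1 had a log2 fold change of -0.02 (adjusted p = 0.77).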

How the data were processed

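Poly(A)-selected paired-end libraries of rat RA-FLS were sequenced by the study's provider. The submitters' processing notes name FastQC, Trimmomatic, HISAT2 and the build Rnor_6.0, and the counting program, annotation version and strand setting are not given in the sources used here. The authors deposited raw counts per gene without normalization, which were used for every result. The authors also deposited FPKM (counts scaled by gene length and depth), and a group comparison with scaled means, fold changes and p-values, and neither was used. Other columns deposited with the table, such as gene length in bases, were taken as given.

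Groups came from the treatment labels. The 13614 genes that reached 10 counts in 3 or more libraries were scaled by TMM and compared with edgeR 4.0.16 in R 4.3.3 (robust quasi-likelihood F test, no covariate, Benjamini-Hochberg adjustment, calls at 0.05). The common biological coefficient of variation was 0.121. A standard error is the log2 fold change divided by the square root of F. TPM was computed from counts and deposited lengths. The study's methods describe 3 biological replicates per group. The fits were tested on simulated counts in which only a small part of the genes was changed. In these data 80.9% of genes were called, so that test does not cover the scaling used here. Alternatives were DESeq2 1.42.0, other scalings and filters, the replicate number as a block, and each library left out (on the same genes). Of the lists, 1 partner, 1 fibroblast and 1 endothelial marker were not analysed here. Members, lists and tests were chosen with earlier results of these data known. Named were all members, and of the partners the 3 largest called changes each way. The eIF2 kinase genes Eif2ak1 and Eif2ak2 were also named, after their values were seen. Depth was 16813322 to 17794455 counts per library, and the lowest member count was 236.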

Additional observations from a re-analysis of the deposited data

How the results depend on the processing

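No member changed direction under any of the 13 alternatives, and 40 of 46 kept their call under all of them; the other 6 (Eif3b, Eif3el1, Eif4enif1, Eif4g2, Eif5a2 and Eif4ebp3) had absolute log2 fold changes under 0.3. TPM was not among these alternatives, and by mean TPM Eif3b, Eif3el1, Eif4g2 and Eif4h were lower with EMO, opposite to the fit. The count of members that rose was 34 to 37 and that fell 6 to 9. Scaling by library totals moved the median of all genes to -0.13, and the medians were then 1.15 for eIF2 and the tRNA carriers, 0.76 for eIF2B, 0.79 for eIF3, 0.10 for eIF4F and helpers, 1.65 for start-codon selection and 0.66 for all members, with 5 partners, rather than 3, falling past 2-fold. Requiring 10 counts in all 6 libraries gave 1.19 for eIF2 and the tRNA carriers, 0.83 for eIF3, 0.14 for eIF4F and 0.70 for all members, and upper-quartile scaling gave 0.74 for all members. For the medians and partners, that filter, no filter and RLE scaling were chosen after seeing the data. Leaving out each library gave 0.76 to 0.84 for all members, and a difference in the share of Eif4e2 from -2.96 to 0.82 percentage points, the sign turning without TNF-α+EMO replicate 1 (-1.07 with all libraries). Without division by length, the subunits of eIF3 differed in coefficient of variation by 12.4 rather than 3.40 percentage points. The replicate numbers are shared by the groups. Deviations of same-numbered libraries from their group means correlated with r from -0.00382 to 0.0622. For different numbers r was -0.0629 to 0.0442. These values gave no sign of pairing, but with 3 libraries per group they cannot decide it. With the replicate number as a block, 36 members rose and 7 fell, with a median of 0.78, since Eif3el1 gained and Eif4enif1 lost its call.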
